A study of Rattus norvegicus with 49 samples.

Results

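Furan is a small volatile ring that forms in heated food, and the liver is its main target in rodents. In hepatocytes CYP2E1 oxidises it to a reactive dialdehyde that binds thiols, lysines and glutathione, and the genes usually followed after such exposure are glutathione and NRF2 genes, p53 targets, cell cycle genes, cytochromes P450 and markers of bile duct and fibrosis. The livers described here are those of female F344 rats, an inbred strain, that received 0.5 mg/kg furan, the second highest dose of the study. They were compared with livers of females that received the corn oil vehicle alone. Animals were 7 to 8 weeks old at the first dose and were gavaged on 5 days per week for 90 days. The arrays were chosen by the animal code in the labels, FD for 0.5 mg/kg and FC for 0 mg/kg, which gave 10 of the 49 arrays of the series, 5 in each group and each from a separate rat. Females at 0.03, 0.12 and 2 mg/kg and males at 0 and 0.5 mg/kg, of the same strain, vehicle and schedule, are used for side by side values. Rats are named by group and animal number.

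Each array carried liver RNA in red (Cy5) and a universal rat reference RNA in green (Cy3), so every level below is a log2 ratio of liver over reference, and a difference of 1 is a 2-fold difference. The labelled tissue and sex were borne out by defining transcripts. Alb, the main plasma protein of hepatocytes, had ratios from 7.98 to 9.02 over the 10 arrays. The female-specific Cyp2c12 lay between 8.96 and 10.6, against 1.0 to 4.21 in males at 0 and 0.5 mg/kg, and the male-specific Cyp2c11 lay between -0.08 and 1.32, against 6.46 to 8.24 in those males. Fewer liver spots were bright on most treated arrays, with overlap between the groups. Between 58.0% and 71.1% of liver spots were well above background on control arrays, and between 44.8% and 64.4% on treated arrays, with the reference channel at 73.9% to 76.1% and 70.0% to 77.5%. Control rats 7, 11 and 4 shared slides 1, 2 and 7 with treated rats 70, 72 and 62. Control rats 9 and 2 lay on slides 3 and 4, and treated rats 64 and 68 on slides 6 and 8, which held no female control. The share of bright liver spots differed between slides over all doses and both sexes. It ran from 42.8% to 46.0% on slide 6, and from 45.5% to 56.1% on slide 8 without its dim array. On slides 3 and 4 it ran from 65.5% to 71.1%. Within slides 1, 2 and 7 treated arrays were at 60.6%, 64.4% and 53.2% and control arrays at 64.8%, 64.0% and 58.0%. Changes below are therefore from a limma model with slide as a block, fitted to 48 arrays. The differences within the 3 shared slides are given for the called probes and for some other genes. Rat numbers are those of the scanner files, since 39 of the 46 columns of the deposited value matrix that could be matched held the array of another rat of the same group. Of the tested probes, 15485 were above background on all 5 control arrays and 11566 on all 5 treated arrays, the latter including those of slides 6 and 8. Fewer cells of a type and less RNA per cell cannot be told apart in these bulk samples.

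At 0.5 mg/kg very few transcripts passed the test in females, and all of them fell. Of 17661 tested probes, 5 were called at an adjusted p of at most 0.05 by limma and a fold change of at least 1.5, which is 0.0283% of those tested. None rose and 5 fell. With no fold limit 8 probes passed, of which 2 were higher and 6 lower. At an unadjusted p under 0.05, 1181 probes were higher and 1507 lower. The count of 5 rests on single rats: limma called 1 probe without control rat 7, 9 or 2 or treated rat 70, 2 without treated rat 72, 3 without treated rat 64 or 62, 41 without control rat 4, 141 without treated rat 68 and 143 without control rat 11. With no slide block limma called 0 probes on the 48 arrays (2428 at an unadjusted p under 0.05) and 166 on the 10 arrays of both groups alone, of which 161 were lower, and without slides 6 and 8 the count was 114, of which 111 were lower.

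The lowest p belonged to a probe for the Ensembl transcript ENSRNOT00000007197, which has no gene name in the tables used here. Its log2 ratio in controls was 0.92 in rat 7, 0.78 in rat 11, 0.97 in rat 4, 1.42 in rat 9 and 1.59 in rat 2. In treated rats it was 0.14 in rat 70, 0.28 in rat 72, 0.10 in rat 62, -0.01 in rat 64 and 0.14 in rat 68. The groups did not overlap, and every treated rat lay near 0, with a liver signal not well above background on any treated array. The slide-adjusted change was -0.70 (SE 0.08; limma, adjusted p = 3.07e-06), and the differences within slides 1, 2 and 7 were -0.79, -0.50 and -0.88. Because the treated signals were below background, the liver channel gives only a bound. Between group means not adjusted for slide, the signal was at least 1.59-fold lower at 0.5 mg/kg. It was the single probe of the 5 that was called after leaving out any 1 of the 10 rats.

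Epha4, a receptor tyrosine kinase for ephrins, was the called probe with a gene symbol. Its ratio in control rats 7, 11, 4, 9 and 2 was 0.70, 0.74, -0.47, 0.30 and 0.12, and in treated rats 70, 72, 62, 64 and 68 it was -0.54, -0.78, -0.29, -0.39 and -0.33. Control rat 4 lay among the treated rats, so the groups overlapped. The change was -0.95 (SE 0.16; limma, adjusted p = 0.0124), with differences of -1.24, -1.52 and 0.18 within slides 1, 2 and 7, so the pair on slide 7 went the other way. Its liver signal was above background on 5 control and 2 treated arrays. A further Epha4 probe, with a change of -0.70, missed the threshold (limma, adjusted p = 0.0637). The call of Epha4 was lost without control rat 7, 9 or 2 or treated rat 70 or 72.

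The other called probes have no gene name here. The probe for ENSRNOT00000001579 was above background on all 10 arrays. Its ratio was 0.39, -0.53, -0.09, -0.40 and -0.20 in control rats 7, 11, 4, 9 and 2, and between -0.96 and -0.85 in the treated rats, all of them below every control. Its change was -0.88 (SE 0.17; limma, adjusted p = 0.0344), with differences of -1.29, -0.33 and -0.78 within slides 1, 2 and 7. The treated rats varied little, with an SD of 0.04 against 0.36 in controls (n = 5 each). The probe for ENSRNOT00000044322 was above background on all control arrays and on no treated array. It ranged from 0.70 to 1.33 in controls and from -0.17 to 0.12 in treated rats, a change of -0.78 (SE 0.15; limma, adjusted p = 0.0344). The differences within slides 1, 2 and 7 were -1.07, -0.98 and -0.73. Between group means not adjusted for slide, its liver signal was at least 1.72-fold lower. The probe A_64_P006698 was above background on 4 control arrays and on no treated array. Control rats 7, 9 and 2 were at 1.97, 1.89 and 1.59 and control rats 11 and 4 at 0.30 and 0.31, while treated rats lay between -0.32 and 0.17. Its change was -1.05 (SE 0.21; limma, adjusted p = 0.0440), and the differences within slides 1, 2 and 7 were -2.29, -0.38 and -0.59. Between group means not adjusted for slide, its liver signal was at least 1.96-fold lower. The call was lost without control rat 2, 7 or 9 or treated rat 62, 64 or 70.

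**Figure D1:**
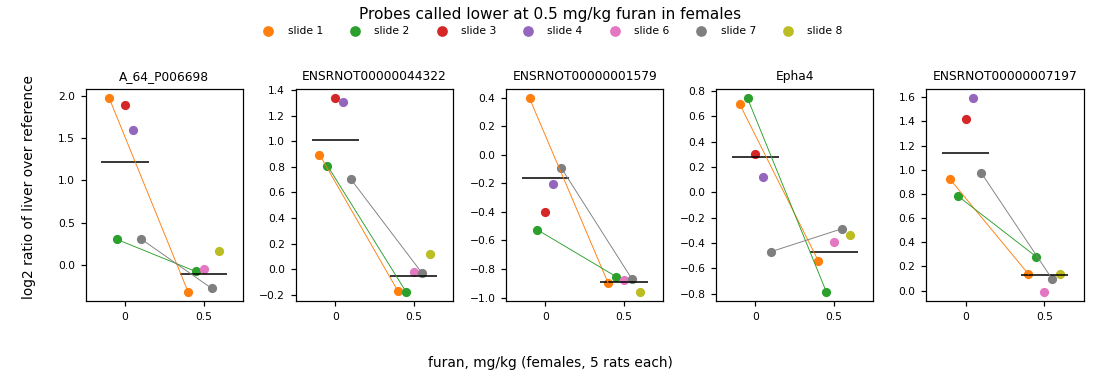
Log2 ratio of liver over reference (y axis) of the 5 called probes in control females and females at 0.5 mg/kg furan (x axis). Each point is 1 rat coloured by slide, lines join rats of the same slide and bars are group means. Treated rats lie below every control for 4 probes, and for Epha4 the control on slide 7 lies at -0.47, among the treated rats.

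Below the threshold, 29 genes had a probe with an unadjusted p of at most 0.001, at least a 1.5-fold change and the same direction within slides 1, 2 and 7. Of these, 3 were higher and 26 lower at 0.5 mg/kg, and none was called. They were selected on this contrast, so the values that follow describe them and test nothing. Over all tested probes, the treated rats were all below the controls for 2.59% and all above them for 0.561%. Among tested probes 108 were above background on all 5 control arrays and on no treated array, and 0 the other way round. The share of liver spots above background moved the same way, as given above, and its part in these differences was not tested.

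The higher genes were Lipogenin, Wbp1l and Rhbdd2. Lipogenin ranged from -1.45 to -0.75 in controls and from -0.68 to 0.11 in treated rats, without overlap, and its change was 0.74 (SE 0.16; limma, adjusted p = 0.0544). Wbp1l, which encodes a membrane protein that binds WW domains, had ratios of 1.58, 0.73, 1.66, 1.43 and 0.77 in control rats 7, 11, 4, 9 and 2 and 1.92, 1.40, 2.32, 1.59 and 1.67 in treated rats 70, 72, 62, 64 and 68. The groups overlapped, and the treated rat was higher on each shared slide, by 0.34, 0.67 and 0.66. Its change was 0.66 (SE 0.14; limma, adjusted p = 0.0544). A second probe of Wbp1l changed by 0.30 (limma, adjusted p = 0.273). Rhbdd2, a rhomboid family protein, had a change of 0.61 (SE 0.14; limma, adjusted p = 0.0637).

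Most of the lower genes named here were near background in treated liver. Opn4 encodes the retinal photopigment melanopsin, and its ratio was 2.52, 0.77, 1.56, 2.66 and 2.45 in control rats 7, 11, 4, 9 and 2 and -0.31, -0.44, -0.08, -0.25 and 0.72 in treated rats 70, 72, 62, 64 and 68. Its change of -1.72 (SE 0.41; limma, adjusted p = 0.0637) was the largest of the 29, and its liver signal was above background on 5 control arrays and 1 treated array. Ntrk2, the receptor of the neurotrophin BDNF, had a change of -1.50 with the same detection. Slc7a14, an amino acid carrier relative, ranged from 0.66 to 2.47 in controls and from -0.06 to 0.32 in treated rats, and Usp51, a deubiquitinase, from 0.74 to 2.42 and from -0.03 to 0.45. Neither was above background on any treated array. Between group means not adjusted for slide, their liver signals were at least 2.74-fold and at least 1.96-fold lower. The slide-adjusted changes were -1.28 (SE 0.29) and -1.135 (SE 0.25; limma, adjusted p = 0.0544 for each). For Slc7a14 that is 2.43-fold, less than the bound that ignores slide. Bcas1 (-1.24), Cacng2, a calcium channel and AMPA receptor subunit (-1.05), and Hapln4, a hyaluronan link protein (-1.01), were above background on all control arrays and on 1 or 2 treated arrays. Of the 10 lower genes with the largest changes, 7 had control rats 11 and 4 as the 2 lowest controls, against 9.18% of all tested probes. A second probe of Bcas1 changed by -0.33 (limma, adjusted p = 0.39).

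Acoxl and Obp3 were above background on 5 control and 3 treated arrays each. Acoxl, an acyl-CoA oxidase relative, ranged from 1.81 to 2.69 in controls and from 0.17 to 0.84 in treated rats, a gap between the groups with a change of -1.26 (SE 0.34; limma, adjusted p = 0.0791). Obp3, of the urinary protein and odorant binding family that male liver makes in quantity, had a change of -1.37 (SE 0.37; limma, adjusted p = 0.0784) and ranged from 1.60 to 3.69 in controls and from 0.15 to 1.83 in treated rats. Its relative Mup5 had a change of -1.88 (SE 0.61), from 0.85 to 4.38 in controls and from -0.01 to 1.08 in treated rats (limma, adjusted p = 0.129). These near-identical genes can share signal.

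**Figure D2:**
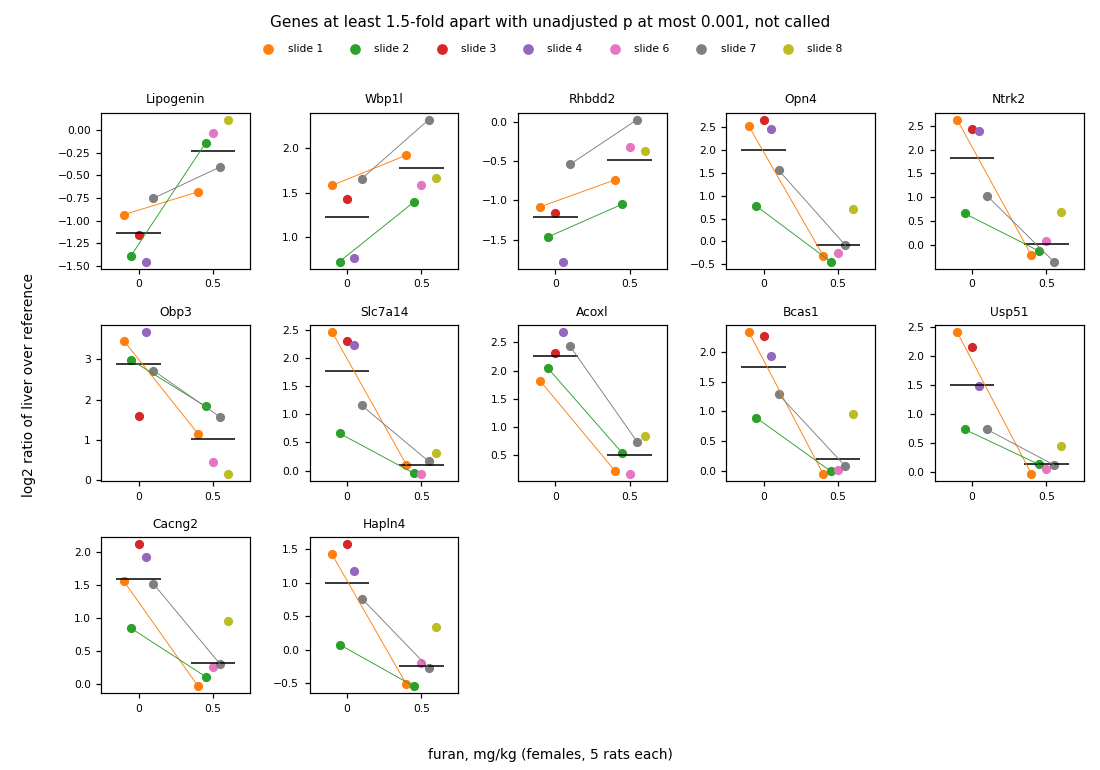
Log2 ratio of liver over reference (y axis) for 12 genes, 3 higher and 9 lower at 0.5 mg/kg furan, that were at least 1.5-fold apart with an unadjusted p of at most 0.001 and were not called. Points are rats coloured by slide, lines join rats of the same slide, bars are group means and the y axis differs between panels; in Opn4, Ntrk2, Slc7a14 and Usp51 treated rats lie between -0.44 and 0.72.

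The same probes were read at the other doses against the same control females, so these comparisons share the control rats and are set side by side. ENSRNOT00000007197 had changes of -0.42, -0.48, -0.70 and -0.70 at 0.03, 0.12, 0.5 and 2 mg/kg, and unadjusted group means of 0.52, 0.31, 0.13 and 0.10 against 1.14 in controls. Epha4 had changes of -0.77, -0.72, -0.95 and -1.08. For ENSRNOT00000001579 they were -0.64, -0.89, -0.88 and -0.80. The genes near background differed by dose: Opn4 had changes of 0.04, -0.71, -1.72 and -1.24, and Bcas1 of 0.09, -0.49, -1.24 and -0.95, with values near 0 at 0.03 mg/kg. Wbp1l had 0.27, 0.15, 0.66 and 0.62.

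**Figure D3:**
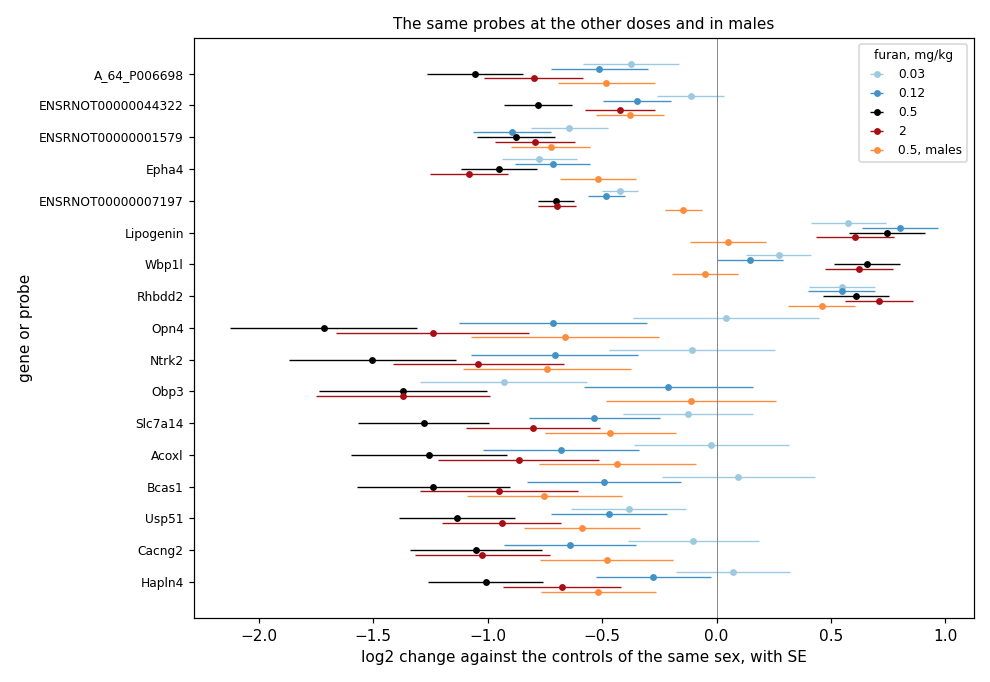
Slide-adjusted log2 change against controls of the same sex with its SE (x axis) for the 5 called probes and 12 further genes (y axis) in females at 4 doses and in males at 0.5 mg/kg. All 4 female doses share the control rats; Opn4 moves from 0.04 at 0.03 mg/kg to -1.72 at 0.5 mg/kg.

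Whether the 0.5 mg/kg effect differed between the sexes was tested as the difference of the effects, and limma called 0 of 17661 probes (0%), with 1448 at an unadjusted p under 0.05. With each sex set against its own controls, 64 probes met the call thresholds for males (33 higher, 31 lower) and 5 for females. The lack of calls in the difference test therefore does not show that the sexes responded alike. The lowest adjusted p of that test, 0.18, was shared by ENSRNOT00000007197, with a change of -0.70 in females and -0.15 in males (difference -0.56), and by the thyroid hormone deiodinase Dio3, with -0.45 and 0.47 (difference -0.92). Epha4 had -0.95 in females and -0.52 in males (difference -0.43; limma, adjusted p = 0.632), and ENSRNOT00000001579 -0.88 and -0.73 (difference -0.15; limma, adjusted p = 0.898). In control males Epha4 stood at -0.44 ± 0.28 (SD, n = 5), below the 0.28 ± 0.49 (SD, n = 5) of control females and close to the -0.47 ± 0.20 (SD, n = 5) of treated females. Wbp1l differed in sign, 0.66 in females and -0.05 in males, but that difference was not called (0.71; limma, adjusted p = 0.362). Lipogenin had 0.74 and 0.05 (difference 0.69; limma, adjusted p = 0.445).

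Females at 2 mg/kg differed from females at 0.5 mg/kg in 2 called probes of 17661 (0.0113%), both lower at 2 mg/kg, with 1337 at an unadjusted p under 0.05. Against the same control females, limma called 248 probes at 2 mg/kg (103 higher, 145 lower) and 5 at 0.5 mg/kg, so few direct calls do not show that the doses were alike. Plekhb1, a pleckstrin homology domain protein, had group means of 2.58 ± 0.35 at 0, 2.19 ± 0.23 at 0.5 and 1.16 ± 0.33 at 2 mg/kg (SD, n = 5 each). Between the 2 doses it fell by 1.0 on the log2 scale (limma, adjusted p = 0.0352), while its change at 0.5 mg/kg against controls was -0.18 (SE 0.18) and not called. The unnamed probe A_64_P006473 had means of 3.37 ± 0.36, 3.15 ± 0.39 and 2.12 ± 0.43 at those doses (SD, n = 5 each) and fell by 0.95 between 0.5 and 2 mg/kg (limma, adjusted p = 0.0257). The called probes of 0.5 mg/kg did not pass this test: ENSRNOT00000007197 differed by 0.00 and Epha4 by -0.13 (limma, adjusted p = 0.999 and 0.943).

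Liver functions were read through 38 lists of well-known genes, each gene by its brightest tested probe, and no list member was called (limma; the lowest adjusted p, 0.0544, belonged among others to Irs2). Over all 9852 genes read this way, 6.98% were higher and 6.98% lower at an unadjusted p under 0.05, with a median change of 0.00. The counts below use that unadjusted threshold and are to be read against those shares. Without the slide block, list medians were lower in 35 of 38 lists, and those values are given below for some lists only.

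Detoxication of furan metabolites was the first group. Among 20 glutathione S-transferases 2 were higher and 0 lower, with a median of 0.00. Gstm4 ranged from 0.56 to 1.66 in controls and from 0.86 to 1.69 in treated rats, which overlapped, and its change was 0.47 (SE 0.12; limma, adjusted p = 0.0722). The microsomal transferase Mgst1 had 0.26 (SE 0.10; limma, adjusted p = 0.213), and -0.0648 without the slide block. Of 24 NRF2 targets and glutathione synthesis genes 1 was higher, glutathione synthetase Gss at 0.23, and 2 were lower, the exporter Abcc4 at -0.67 and malic enzyme Me1 at -0.75, with a list median of -0.05. Abcc4 was 0.07, -0.17, 0.20, 0.38 and -0.19 in control rats 7, 11, 4, 9 and 2 and -0.79, -0.84, -0.61, -0.50 and 0.05 in treated rats 70, 72, 62, 64 and 68, so that treated rat 68 lay among the controls (limma, adjusted p = 0.0751). Of 12 aldo-keto reductases 3 were higher, Akr7a2, Akr1a1 and Akr1b1 at 0.20, 0.26 and 0.17, and 2 lower, Akr1c2 and Akr1d1 at -0.22 and -0.34. Akr7a2 was at -0.0401 without the slide block. Of 23 phase 1 enzymes 0 were higher and 4 lower, with a median of -0.11. The fatty acid hydroxylase Cyp4a8 ranged from 2.23 to 3.81 in controls, and in treated rats 70, 72, 62, 64 and 68 it was -1.23, 0.16, 0.44, 0.44 and 3.01. Its change was -2.35 (SE 0.66; limma, adjusted p = 0.0872), and treated rat 68 lay among the controls. The steroid and drug hydroxylases Cyp2c7, Cyp3a18 and Cyp2a1 had -0.39, -0.58 and -0.23. Glucuronidation and sulfation held 17 genes, 0 higher and 2 lower (Sult2a1 at -0.33 and Papss2, which makes the sulfate donor, at -0.24), and export pumps and carriers 18, 0 higher and 2 lower, Abcc4 and Abcb1a at -0.24. Of 7 metallothionein and zinc genes 0 passed in either direction.

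Stress and growth genes formed the next group. Of 19 p53 targets 3 were higher and 0 lower, with a median of 0.14. The apoptosis effector Bax was -1.03, -1.09, -0.90, -1.18 and -1.42 in control rats 7, 11, 4, 9 and 2 and -0.66, -0.82, -0.49, -0.73 and -0.77 in treated rats 70, 72, 62, 64 and 68. Every treated rat was above every control, with a change of 0.34 (SE 0.09; limma, adjusted p = 0.0791). The cyclin Ccng1 and the exonuclease Aen had 0.30 and 0.24. Of 27 DNA replication and mitosis genes 5 were higher and 0 lower, and 25 had a change above 0, with a median of 0.17. Birc5, the mitotic survivin, ranged from -2.84 to -2.38 in controls and from -2.37 to -1.81 in treated rats, a change of 0.30 (SE 0.10; limma, adjusted p = 0.147). Ccnb2, Ccna2, Kif11 and Mcm6 had 0.36, 0.42, 0.26 and 0.26, with liver levels far below the reference. Kif11 and Mcm6 were above background on 3 control and 2 treated arrays each, and Ccnb2 on 5 control and 2 treated arrays. Without the slide block the median of the list was 0.35. It was 0.14 without slides 6 and 8, 0.09 with Agilent's ratio, 0.05 within slides 1, 2 and 7 and 0.05 with median centring. The median of this list was 0.13, 0.12, 0.17 and 0.10 at the 4 doses in order in females and -0.05 in males at 0.5 mg/kg. Of 21 ER stress genes 1 was lower, the phosphatase subunit Ppp1r15a at -0.49, of 12 heat shock chaperone genes 1 was higher, their regulator Hsf1 at 0.22, and of 33 ubiquitin and proteasome genes 3 were lower, among them the proteasome subunits Psmc6 and Psmc2 at -0.27 and -0.21. Of 43 ribosomal protein genes 0 passed in either direction.

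Hormone and fuel signalling showed genes on both sides. Of 18 insulin and fasting genes 4 were higher and 4 lower, with a median of -0.11. The insulin receptor substrate Irs2 was 0.55, -0.14, 0.37, 0.57 and -0.04 in control rats 7, 11, 4, 9 and 2 and -0.41, -0.68, -0.05, -0.29 and -0.12 in treated rats 70, 72, 62, 64 and 68. The groups overlapped only through the lowest controls, and the treated rat was lower on each shared slide, by values of -0.95, -0.54 and -0.42. Its change was -0.74 (SE 0.16; limma, adjusted p = 0.0544). Irs1 and the kinase Sik1 had -0.27 and -0.47, the IGF binding protein Igfbp1 -0.76, while the lipid phosphatase and coactivator Lpin1 had 0.99, the transcription factors Egr1 and Foxo3 0.36 and 0.27 and the carnitine transferase Cpt1a 0.57. Lpin1 differed between slides, with 1.98 and 1.22 within slides 1 and 2 and -0.90 within slide 7. Of 16 glucocorticoid and gluconeogenesis genes 3 were higher, the corticoid-induced Zbtb16, Klf9 and Fkbp5 at 1.08, 0.45 and 0.59 (limma, adjusted p = 0.118, 0.168 and 0.305), and 1 lower, glucose-6-phosphatase G6pc1 at -0.51. Zbtb16 had 1.80 and 1.40 at 0.03 and 0.12 mg/kg and 1.66 at 2 mg/kg against the same controls, and 1.92 in males at 0.5 mg/kg. Of 16 growth hormone and IGF genes 2 were lower, Igf1 at -0.35 and Igfbp1, and of 14 clock genes 2 were lower, Nfil3 at -0.21 and Cry1 at -0.43. Of 13 thyroid hormone responsive genes 2 were higher and 3 lower, among them the deiodinase Dio3 at -0.45.

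Lipid genes were also divided. Of 24 lipogenesis and storage genes 4 were higher and 4 lower, with a median of -0.08. Me1 ranged from 0.23 to 0.69 in controls and from -0.32 to -0.02 in treated rats, without overlap, and its differences within slides 1, 2 and 7 were -0.85, -0.71 and -0.89. Its change was -0.75 (SE 0.25; limma, adjusted p = 0.14), its changes at 0.03, 0.12 and 2 mg/kg were -0.18, 0.00 and -0.75, and a dimmer probe of the gene had -0.33. The elongase Elovl6 was at 2.37 in control rat 4 and between 0.35 and 0.94 in the other controls, and between -0.04 and 0.43 in treated rats, a change of -1.01 (SE 0.29; limma, adjusted p = 0.0912) to which slide 7 gave -2.24 and slides 1 and 2 gave -0.06 and -0.26. Cidec, a lipid droplet protein, had 0.38, Fabp4 0.44 and the acyltransferase Gpam -0.34. The liver signal of Fabp4 was above background on 1 control and 1 treated array. Of 27 PPAR alpha and fatty acid oxidation genes 2 were higher, Ppara at 0.39 and Cpt1a, and 0 lower. Of 24 cholesterol genes 1 was lower, the isomerase Ebp at -0.32, and of 17 bile acid genes 2 were lower, Amacr at -0.32 and Akr1d1. Of 39 respiratory chain genes 3 were higher, Atp5f1b, Uqcrc1 and Ndufa9 at 0.45, 0.31 and 0.19, and 3 lower, Cox4i1, Cox7b and Cox7a2 at -0.30, -0.22 and -0.18. Of 11 heme genes 2 were higher, ferrochelatase Fech at 0.39 and biliverdin reductase Blvra at 0.33.

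With slide as a block, secreted and sex-biased liver transcripts were lower on balance, together with hepatocyte markers, by amounts that depended on the processing. Of 29 complement and coagulation genes 0 were higher and 6 lower, with a median of -0.15, and 25 had a change below 0. The terminal component C6 was at 4.61 in treated rat 68, between 6.70 and 7.96 in the other treated rats and between 7.27 and 8.31 in controls, with a change of -0.81 (SE 0.26; limma, adjusted p = 0.124) that was -0.47 without that rat. Cfi, C4a, C4bpa and C1qb had changes from -0.30 to -0.22. Of 25 acute phase proteins 1 was higher, A2m at 0.66, and 3 lower, Serpina3n at -0.46, Fgb at -0.28 and Kng2 at -0.28, with a median of -0.13. Of 15 female-predominant genes 0 were higher and 5 lower (median -0.19), among them A1bg at -0.57 and Hao2 at -0.55. Of 14 male-predominant genes 0 were higher and 4 lower (median -0.18), among them Obp3 and Mup5. Of 14 hepatocyte markers 0 were higher and 4 lower, Rbp4, Fgb, Apob and Apoa2 at -0.32, -0.28, -0.23 and -0.23, with a median of -0.14. The mean ratio of the 14 hepatocyte markers ranged from 6.11 to 7.29 over control rats and from 5.47 to 6.56 over treated rats, and without the slide block the median was -0.78, that of complement and coagulation -0.59 and that of acute phase proteins -0.75. In the same order these medians were -0.19, -0.16 and -0.17 within slides 1, 2 and 7, and -0.03, -0.10 and -0.05 with Agilent's ratio. The median of female-predominant genes was -0.60 without the block and -0.08 within slides 1, 2 and 7. That of male-predominant genes was -0.68 without the block, -0.51 with Agilent's ratio and 0.00 with median centring. The part of slide and of signal level in these values was not tested.

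Few markers of other cells passed the unadjusted threshold, and their medians were lowest for pancreas and red cell markers. Of 11 bile duct markers 0 passed in either direction (median 0.08), of 14 stellate cell and fibrosis markers 1 was lower, Pdgfrb at -0.33 (median 0.08), and of 14 Kupffer cell and macrophage markers 1 was lower, C1qb at -0.22 (median -0.01). Of 8 sinusoidal endothelium markers 1 was lower, Cd300lg at -0.48, of 5 neutrophil markers 0 passed, of 10 lymphocyte markers 1 was higher and 1 lower, Lck at 0.20 and Gzmb at -0.30 (0.23 without the slide block), and of 7 red cell markers 1 was lower, the anion exchanger Slc4a1 at -0.50 (median -0.13). Of 14 pancreas markers 8 passed the filter, and of these 0 were higher and 3 lower (median -0.24). The elastase Cela2a ranged from 0.33 to 0.74 in controls and from -0.17 to 0.32 in treated rats, was above background on 4 control arrays and no treated array, and had a change of -0.38 (SE 0.10; limma, adjusted p = 0.0791). Ctrb1 and Cpa1 had -0.50 and -0.54. Cpa1 was also counted among the lower female-predominant genes. Its ratio was 5.04 to 6.45 in controls, against -0.81 to 0.07 for Ctrb1, and it entered the mean that follows. The mean ratio of the 8 markers, not adjusted for slide, ranged from 1.154 to 1.44 in controls and from 0.97 to 1.143 in treated rats. The groups were thus only just apart. The mean of all genes read this way ranged from 0.31 to 0.36 in controls and from 0.24 to 0.34 in treated rats. The part of pancreatic RNA in the other results was not tested.

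**Figure D4:**
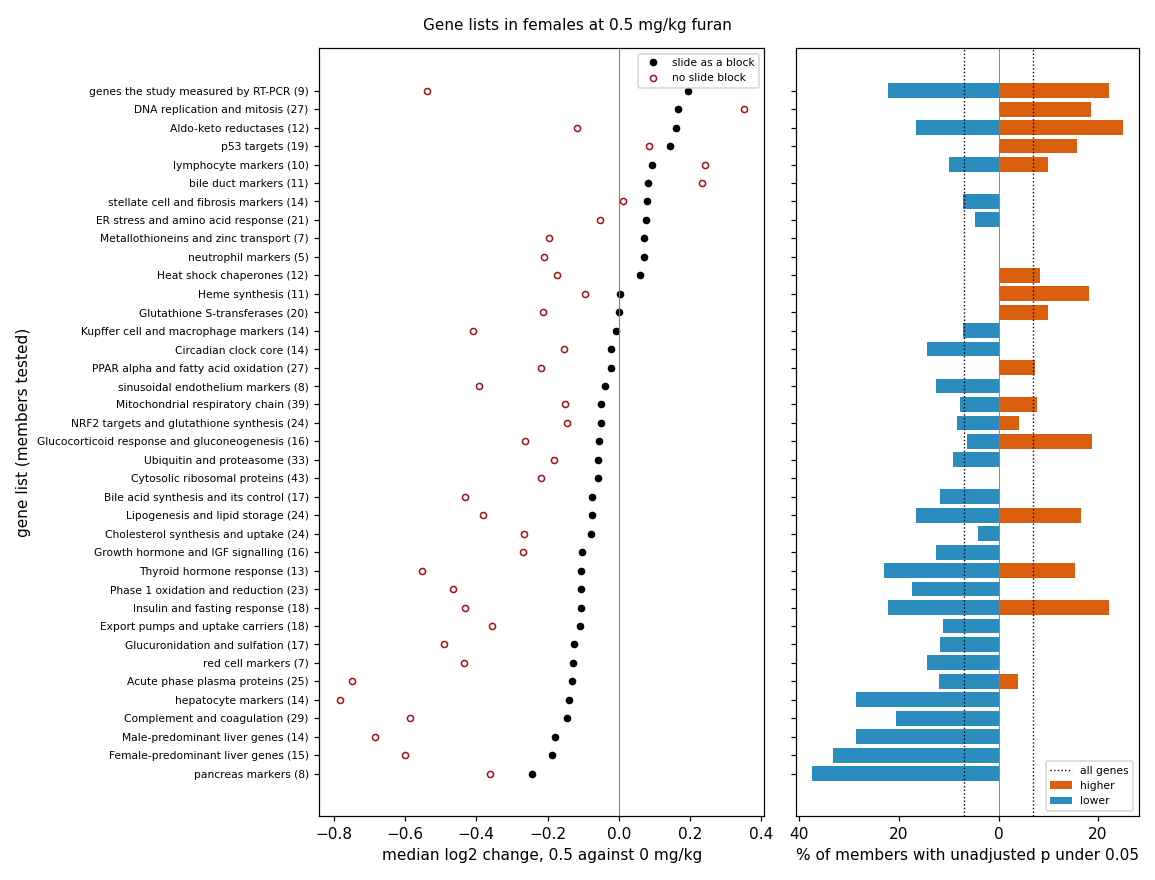
Gene lists (y axis, with the number of members tested) in females at 0.5 against 0 mg/kg. The left panel gives the median log2 change with slide as a block (filled) and without it (open), and the right panel the share of members (%) higher or lower at an unadjusted p under 0.05, with dotted lines at 6.98% for all genes. Complement, acute phase and hepatocyte lists lie below 0 and shift further without the block.

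Among the genes followed by RT-PCR in the study, Abcb1b, Cyp3a62, Akr7a3, Ppara and Fabp7 had been chosen on these arrays, which are no independent evidence on them, and Dio1, Thrsp, Mlxipl and Me1 because thyroid hormone regulates them. By brightest probe, of 9 such genes 2 were higher and 2 lower at an unadjusted p under 0.05, and limma called 0. For the genes chosen on these arrays, the study's own analysis of females at 0.5 mg/kg reported significant array changes for Abcb1b (higher) and Fabp7 (lower). By RT-PCR it reported significant changes for Cyp3a62 (higher) and Fabp7 (lower) at this dose. The aldehyde reductase Akr7a3 had a change of 0.50 (SE 0.35) and overlapping groups, 0.87 to 2.15 in controls and 1.03 to 1.97 in treated rats, against 1.65 at 2 mg/kg and 1.2 in males at 0.5 mg/kg. The drug exporter Abcb1b had 0.34 (SE 0.22), and a dimmer probe of it had 1.32 (SE 0.40; limma, adjusted p = 0.106), so its probes disagreed in size. Cyp3a62 had 0.20 (SE 0.28) against 1.5 at 2 mg/kg. Fabp7, a fatty acid binding protein, had -0.49 (SE 0.22) against -1.03, and the lipogenic factors Mlxipl and Thrsp had 0.36 (SE 0.16) and -0.12 (SE 0.09). Ppara, which controls fatty acid oxidation, had 0.39 (SE 0.18). Without the slide block the values of Cyp3a62, Mlxipl and Ppara were -0.54, -0.11 and -0.20, each of the opposite sign. With Agilent's ratio that of Fabp7 was 0.15, also of the opposite sign. Dio1, the deiodinase that activates thyroid hormone, had 0.01 (SE 0.19), and -0.71 without the slide block.

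**Figure D5:**
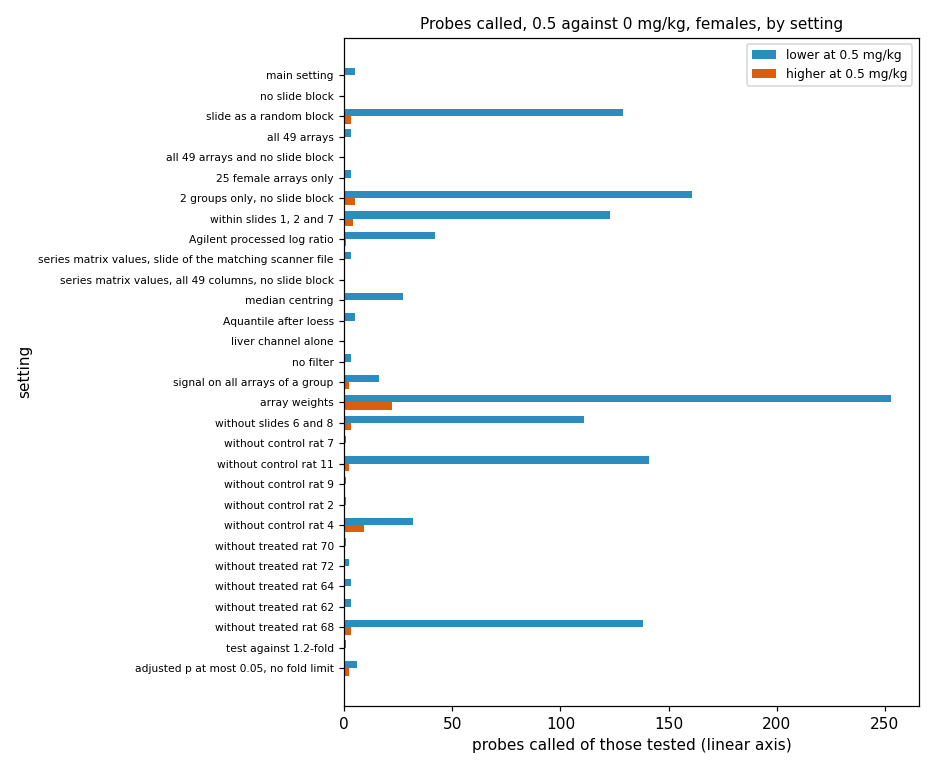
Number of probes called (x axis, linear) as lower or higher at 0.5 mg/kg than in controls in females, by setting of the analysis (y axis). The count runs from 0 without a slide block to 275 with array weights, and lower probes outnumber higher ones wherever any were called.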

How the data were processed

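Members, gene lists and comparisons were chosen with earlier results of these data known. Liver RNA (Cy5) was hybridised against universal rat reference RNA (Cy3) on Agilent 8x60K arrays with no dye swap. Per the file headers the slides were scanned at 3 micrometres and read with Agilent Feature Extraction 10.7.3.1. The deposited scanner files hold a median pixel intensity for each spot and its local background, a log10 ratio of liver over reference that was background subtracted and dye normalised by the scanner software, and marks for spot quality. In the matrix of the series the authors deposited log2 ratios that they had normalised in R, with 0 columns left out. Of its 49 columns 46 matched a scanner file (correlation over probes at least 0.985), 39 of them the file of another animal of the same group, so animal numbers differ between both sources. The array of treated rat 62 matched no column. The unmatched columns were left out of the matrix fit with slide.

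Signals were background corrected by normexp (offset 50), normalised by loess within arrays in limma 3.58.1 (R 4.3.3, package data.table at version 1.17.8, jsonlite 2.0.0), and averaged over the spots of a probe after spots marked as not uniform or outlying were left out. Of 30367 probes, 17661 were tested, those whose liver signal was marked well above background on 4 or more arrays within any group. Means per sex and dose plus slide as a fixed block were fitted to 48 arrays. The dim array of a male at 0.03 mg/kg, on the slide of treated rat 68, was left out. Adjusted p values are Benjamini-Hochberg over all tested probes, 2-sided, and a call needs an adjusted p of at most 0.05 and at least 1.5-fold. The spread is that between rats, and array number limits the precision.

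RefSeq accessions (GRCr8) gave 18004 probes (59.3%) a gene symbol. Named genes were all called probes, genes not called with an unadjusted p of at most 0.001, at least 1.5-fold and 1 direction within slides 1, 2 and 7 (up to 10 per direction), the genes the study measured by RT-PCR, and up to 4 members per list with an unadjusted p under 0.05. Ccna2, C4bpa, Cidec, Cox7a2, Cox7b, Foxo3, Gpam and Hao2 were named beyond that after their values were seen. A bound compares liver-channel group means, not adjusted for slide, after loess and Aquantile scaling. Each dim array entered at its own signal or at the lowest signal well above background, whichever was higher. The bound is open to dye bias without swaps. Some genes that these rules name are not reported here. The fit was tested on simulated data. Alternatives covered the slide term, arrays, normalisation, filter, weights, thresholds and leaving out each rat.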

Additional observations from a re-analysis of the deposited data

Results flagged for a closer look

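Of 206 groups of 5 rats checked over the named genes, 11 held 1 rat apart from the other 4 by Dixon's test (critical value 0.71), and chance alone gives about 1 in 20. Control rat 4 was high for Fabp4 (gap over range 0.902, log2 ratio -1.34 against at most -2.37 in the others), Fkbp5 (0.795), Gzmb (0.78) and Mcm6 (0.742), and low for Cry1 (0.727, at 0.46 against at least 1.06). These ratios were not adjusted for slide, and rat 4 was the only control on slide 7. For Mcm6, treated rats 62, 64 and 68, on slides 7, 6 and 8, were at -1.86, -1.86 and -1.59. Treated rats 70 and 72, on slides 1 and 2, were at -3.33 and -3.45. Fabp4, Fkbp5 and Gzmb were also higher in rats 62, 64 and 68 than in rats 70 and 72. For Cry1, treated rat 64 lay between rats 70 and 72. The part of slide in these gaps was not tested. Other controls stood apart for Birc5 (rat 2, low, 0.83), Cpt1a (rat 11, high, 0.747) and Aen (rat 9, low, 0.747). Among treated rats, rat 68 was high for Bcas1 (0.873, at 0.95 against at most 0.08), rat 72 for Mlxipl (0.715, at 3.62 against at most 2.61) and rat 62 for Nfil3 (0.783, at 1.87 against at most 1.24). Without control rat 4, 41 probes were called.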

How the results depend on the processing

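The 5 called probes were lower at 0.5 mg/kg under all 27 settings counted here, except that A_64_P006698 gave no value, and so 26, where signal on all arrays of a group was required. ENSRNOT00000007197 was called under 22 of the 27 settings, ENSRNOT00000044322 under 15, Epha4 under 14, ENSRNOT00000001579 under 13 and A_64_P006698 under 9. The count of 5 was 0 with no slide block, with all 49 arrays and no slide block, with all columns of the series matrix and no slide block, and with the liver channel alone (2428, 2033, 3097 and 1730 probes at an unadjusted p under 0.05). Limma called 3 with all 49 arrays, with the 25 female arrays, with the matched series matrix columns and with no filter, 8 with no fold limit, and 1 tested against 1.2-fold. It was 132 with slide as a random block (correlation 0.603), 166 with the 2 groups alone and no slide block (5 higher, 161 lower), 127 within slides 1, 2 and 7, 43 with Agilent's log ratio, 27 with median centring (which moved the median change of all probes to -0.12), 18 with signal on all arrays of a group, 275 with array weights, and 114 without slides 6 and 8. Leaving out 1 rat gave 1 to 143. The 0 of the sex difference became 6 with array weights and 0 to 1 leaving out 1 rat (1 without control male 6). The 2 of 2 against 0.5 mg/kg became 0 with no slide block, with all 49 arrays, with both, with all matrix columns, with median centring and against 1.2-fold, 1 with 25 female arrays, with matched matrix columns and with no filter, 13 with Agilent's ratio (11 higher, 2 lower), 8 with the liver channel (5 higher, 3 lower), 20 with array weights (14 higher, 6 lower) and 0 to 7 leaving out 1 rat (7 without 82 at 2 mg/kg, 0 without 70, 72 or 64 at 0.5 or 90, 85 or 83 at 2 mg/kg, 1 without 62). The 1 probe called for 2 against 0.5 mg/kg with 25 female arrays was higher at 2 mg/kg and was not among the 2. For 0.5 against 0 mg/kg, the 3 with 25 female arrays held 1 of the 5 called probes. The 127 within slides 1, 2 and 7 held 2 of them. The use of all matrix columns and the fit without slides 6 and 8 were chosen after seeing the data. The causes were not tested.

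Some single genes changed sign: with no slide block Mlxipl (-0.11), Ppara (-0.20), Akr7a2 (-0.0401), Mgst1 (-0.0648) and Gzmb (0.23), with all matrix columns Mlxipl (-0.46), Ppara (-0.42), Akr7a2 (-0.0904), Fech (-0.16) and Gzmb (0.45), and with Agilent's ratio Fabp7 (0.15) and Cyp2c22 (0.30). Cyp3a62 (-0.54) and Dio1 (-0.71) also changed sign with no slide block. Of 38 list medians 34 moved by more than the SD of controls with no slide block, 18 with median centring, 2 each with Agilent's ratio and matched matrix columns, and 0 with all 49 arrays. No paired analysis was possible because the treated and control females share no animal numbers, so no replicate block could be set. Shared slides were used instead, as the block and in the fit within slides 1, 2 and 7.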
